A study of Homo sapiens with 6 samples.

Results

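The TOX family consists of 4 genes, *TOX*, *TOX2*, *TOX3* and *TOX4*, that encode closely related nuclear proteins with a single HMG-box DNA-binding domain. The members are the 4 rows with these symbols among the 20347 gene symbols measured by RNA-seq in PaTu8988t, an established human pancreatic ductal adenocarcinoma (PDAC) cell line. Control cells (3 replicates) were compared with *SAMD1* KO cells (3 clonally independent clones). The cells were edited by CRISPR/Cas9 from a lentiviral plasmid carrying either guide RNAs against *SAMD1* or an unspecific control guide, and both groups grew in the same DMEM with fetal bovine serum. Which guide gave which clone is not given in the sources used here, and each KO library is a single clone. SAMD1 is a repressor that binds CpG islands through a winged helix domain. The family was chosen by this contrast: *TOX* was selected on a rise above 10-fold between these same libraries, so its values are a description with no test. *TOX2*, *TOX3* and *TOX4* joined it by name.

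The members are known from different tissues. TOX was found in developing thymocytes and is best known for the T cell lineage, where calcineurin and NFAT signalling turns on *TOX* and the NR4A receptors in exhausted CD8 T cells. TOX2 is known from natural killer and follicular helper T cells, TOX3 from neurons and breast epithelium, and TOX4 is a broadly expressed subunit of the PTW/PP1 phosphatase complex. HMG boxes bend DNA on binding in its minor groove.

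The libraries held from 35589477 to 45172216 reads, recovered from the deposited normalized counts, which are read counts divided by 1 size factor per library. A normalized count therefore compares 1 gene between libraries, not genes of different length. *SAMD1* itself had normalized counts of 2231, 2382 and 2299 in control and 874.1, 1082 and 824.8 in the KO clones, so transcript was lower in every library labelled KO with reads remaining in all 3 (log2 fold change −1.32, SE 0.10, limma adjusted p = 0.000724). As a check of the cell line's label, the epithelial keratin genes *KRT8* and *KRT18* lay between 29200.3 and 57041.3 normalized counts and *EPCAM* between 422.2 and 626.4, while *CDH1* lay between 24.0 and 45.8 and *KRT19* had no read in any library.

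*TOX* was near the detection limit in control cells and well above it in every clone. It had 2.29, 4.89 and 2.29 normalized counts in the control replicates, from 2, 5 and 2 reads. In *SAMD1* KO clones 1, 2 and 3 it had 45.5, 95.0 and 89.0 normalized counts, from 46, 110 and 99 reads. Every KO clone was high and every control replicate low, and the lowest clone was 9.30 times the highest control. The means were 3.16 ± 1.50 in control and 76.5 ± 27.0 in KO (SD, n = 3 each), which gives a ratio of 24.2. On the log2(normalized count + 1) scale of the fit the difference was 4.21, which is smaller than the ratio because the added count weighs on the low control values, and it was the largest of the 12773 genes tested. *TOX* passed the filter of a mean of 10 through the KO clones alone, so it had to differ to be tested. *TOX* (ENSG00000198846.6) lies on chromosome 8, 58805412 to 59119147, minus strand (GENCODE 44, GRCh38), and its 9 exons sum to 4076 bases in a span of 314 kb.

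**Figure D1:**
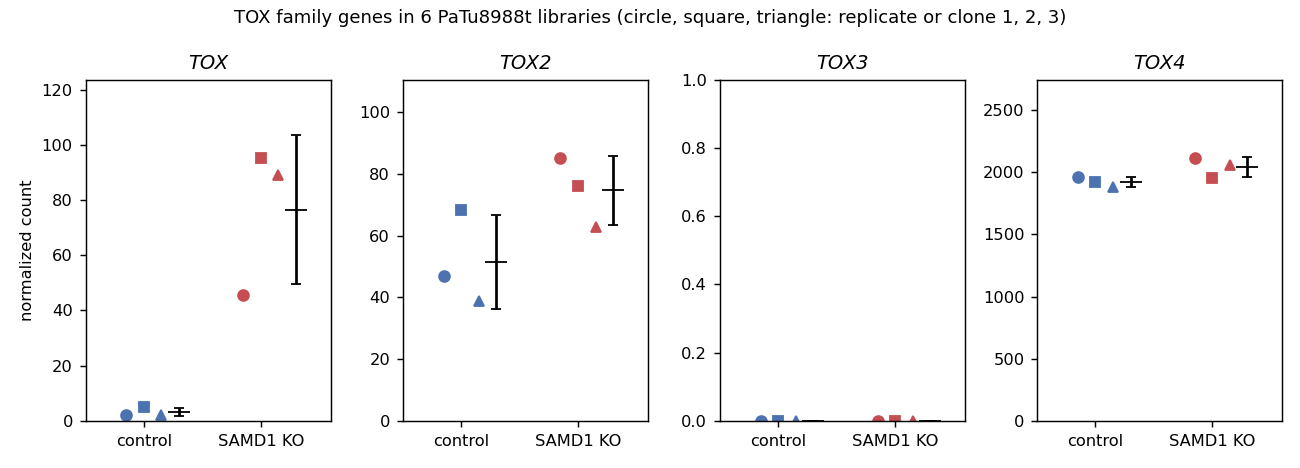
Normalized counts (y axis, from 0, a separate scale for each gene) of the 4 TOX family genes in 3 control replicates (blue) and 3 *SAMD1* KO clones (red), with the mean and SD in black. *TOX* was at 2.29 to 4.89 in control and 45.5 to 95.0 in KO, the *TOX2* groups overlapped, *TOX3* was at 0, and *TOX4* stayed between 1881 and 2111.

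With only 9 *TOX* reads over the control libraries, the size of the ratio is loosely bounded. From pooled reads, 255 in KO against 9 in control, it was 23.9 with an exact 95% interval of 12.4 to 52.9. Against the pooled control, clone 1 stood at 14.0 (6.77 to 32.5), clone 2 at 29.2 (14.9 to 65.6) and clone 3 at 27.4 (13.9 to 61.7). These intervals cover counting error only, not the spread between libraries. They leave out that *TOX* was chosen on this same contrast, which can raise the ratio, and are no test. Clone 1 had less *TOX* than the other KO libraries, beyond counting error. Clone 2 had 2.09 times the level of clone 1 (1.47 to 3.02) and clone 3 had 1.96 times (1.37 to 2.84). Clones 2 and 3 had a ratio of 1.07 (0.81 to 1.41). Control replicate 2 had 2.14 times the level of control replicate 1, from 5 and 2 reads (0.35 to 22.5). Each clone is a single library, so a difference between clones cannot be told apart from one between libraries. A higher level of *TOX* in every cell of a clone and a still higher one in some of its cells cannot be told apart in these bulk libraries. The span of the gene overlaps *TOX-DT* on the opposite strand by 108 bases, and the strand setting of the counting is not given in the sources used here. On the same strand it overlaps the lncRNA ENSG00000254048 by 1219 bases and the snRNA *RNU4-50P* by 141 bases.

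At the threshold of 10-fold, among genes whose normalized counts averaged 50 or more, *GUCY1A1* lay just inside with a ratio of means of 10.2 and *SLC16A14* just outside with 9.465. *TOX*, with a mean of 39.8, was below that count.

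*TOX2*, the member nearest to *TOX* in its immune background, did not pass the test. It had 46.9, 68.5 and 38.9 normalized counts in control and 85.0, 76.0 and 63.0 in KO clones 1, 2 and 3. The groups overlapped, since control replicate 2 was above clone 3. The means were 51.4 ± 15.3 and 74.7 ± 11.1 (SD, n = 3 each) and the log2 fold change was 0.56 (SE 0.25, limma adjusted p = 0.185, exact permutation p = 0.20 with 0.10 the smallest possible). The 95% interval of the fold, 0.98 to 2.20, holds both no difference and a 2.20-fold rise. Its order among the clones was also not that of *TOX*: clone 1 had the most *TOX2* and the least *TOX*.

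*TOX3*, which can bind the CREB co-activators CBP and CITED1, had no read in any of the 6 libraries. A count of 0 allows up to 3 reads, which is 2.59 to 3.44 normalized counts depending on the library, a level that would include that of *TOX* in 2 of the 3 control replicates. No difference between the groups could be measured for *TOX3* at this depth, and no fold is given.

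*TOX4* was the abundant member. It had 1963, 1920 and 1881 normalized counts in control and 2111, 1953 and 2062 in KO, so control replicate 1 was above clone 2 and the groups overlapped. The means were 1921 ± 41.0 and 2042 ± 81.1 (SD, n = 3 each) and the log2 fold change was 0.09 (SE 0.06, limma adjusted p = 0.347, exact permutation p = 0.20). The 95% interval of the fold ran from 0.97 to 1.16. *TOX4* shares 1043 bases with *METTL3* and 364 bases with *RAB2B*, both on the opposite strand. Among all 12773 genes tested, 5.77% were called higher in KO and 2.08% lower, that is past ± 0.5 on the log2 scale at p below 0.01 before adjustment, and neither *TOX2* nor *TOX4* was among them.

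*TOX2* (ENSG00000124191.18; chromosome 20, 43914852 to 44069616, plus strand) and *TOX4* (ENSG00000092203.15; chromosome 14, 21476597 to 21499175, plus strand) have 3 starts in the RefSeq promoter table. These lie inside the GENCODE spans just given, whose first bases are further upstream. The 250 bases before each RefSeq start (GRCh38.p14, plus strand) are shown because SAMD1 binds CpG-rich promoters, with every GCGC in capitals. GCGC reads the same on both strands, and no other motif was searched.
TOX2 start 1, chr20:43915880-43916129: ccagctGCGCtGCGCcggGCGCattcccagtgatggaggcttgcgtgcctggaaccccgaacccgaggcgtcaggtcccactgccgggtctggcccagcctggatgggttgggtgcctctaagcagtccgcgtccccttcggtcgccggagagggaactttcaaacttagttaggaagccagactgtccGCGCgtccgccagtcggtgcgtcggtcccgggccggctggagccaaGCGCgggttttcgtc
TOX2 start 2, chr20:43945646-43945895: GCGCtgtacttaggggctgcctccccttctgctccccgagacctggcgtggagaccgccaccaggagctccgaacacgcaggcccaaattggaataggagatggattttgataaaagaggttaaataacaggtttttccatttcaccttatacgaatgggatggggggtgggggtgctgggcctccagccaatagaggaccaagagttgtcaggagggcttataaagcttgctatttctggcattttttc
TOX4 start, chr14:21476945-21477194: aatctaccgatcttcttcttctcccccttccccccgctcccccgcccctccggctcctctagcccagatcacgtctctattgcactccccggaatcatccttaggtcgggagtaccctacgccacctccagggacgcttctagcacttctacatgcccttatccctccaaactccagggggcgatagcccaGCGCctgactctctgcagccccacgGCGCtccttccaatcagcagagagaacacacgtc

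The window before *TOX2* start 1 held 5 GCGC and 26 CpG, with a GC content of 67.6%. The window before its start 2 held 1 GCGC and 7 CpG, and that before *TOX4* held 2 GCGC and 14 CpG. Of all 35116 RefSeq windows of this length, 53.4% held at least 1 GCGC, 39.1% at least 2 and 16% at least 5. *TOX2* start 1 was thus among the richer windows. Which start is used in these cells, and any link of the matches to expression, was not tested. The matches are letters in a sequence, not measured sites of SAMD1. The study measured SAMD1 binding by ChIP-seq in PaTu8988t cells and found a GCGC motif enriched at bound CpG islands. Those binding data were not used here. *TOX* and *TOX3* have no entry in the promoter table. *TOX3* (ENSG00000103460.17) lies on chromosome 16, 52436417 to 52547802, minus strand.

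To compare the members with each other, each normalized count was divided by the length of the gene's merged exons and scaled to a sum of 1000000 in every library. In control, *TOX4* had a level per length of 28.9 ± 0.4, *TOX2* 1.70 ± 0.51 and *TOX* 0.083 ± 0.040 (SD, n = 3 each), in that order in every library. *TOX2* was 17.6 to 25.8 times *TOX*. In KO the levels per length were 31.6 ± 0.6 for *TOX4*, 2.53 ± 0.36 for *TOX2* and 2.07 ± 0.76 for *TOX*. *TOX2* now ran from 0.89 to 2.36 times *TOX* across the clones, so these neighbours in the order no longer differed beyond their spread. With the canonical transcript as the length instead, *TOX2* was 1.16 to 3.06 times *TOX* and stayed above it in every clone, so the order of these genes depends on the length used. *TOX4* was 11.8 to 26.7 times *TOX* in KO with merged exons, and 18.6 to 41.9 times with the canonical transcript.

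**Figure D2:**
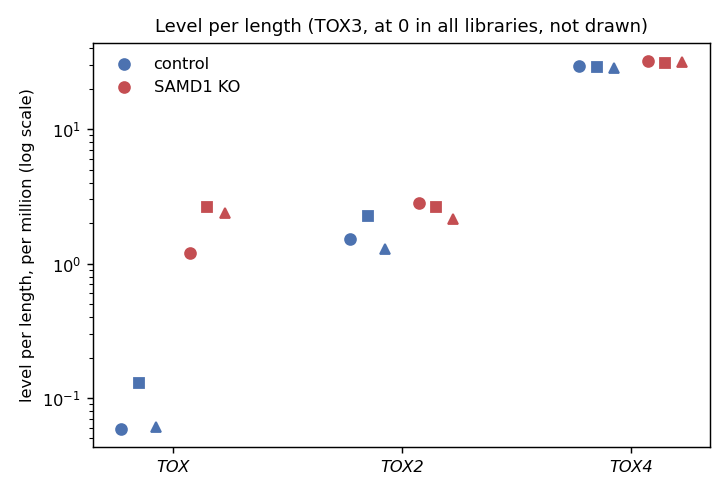
Level per length in each library (y axis, log scale), for 3 control replicates (blue) and 3 *SAMD1* KO clones (red). *TOX* moved from 0.059 to 0.13 in control to 1.20 to 2.62 in KO, beside *TOX2*, and *TOX4* lay far above both.

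*TOX* held 0.27% of the summed family level per length in control and 3.33% to 7.24% in the clones, while *TOX4* held 94.2% in control and 85.5% to 88.8% in KO. Among 16092 genes with reads and a length, *TOX* stood at percentile 16.0 in control and 32.1 in KO, *TOX2* at 32.0 and 33.5, and *TOX4* at 65.0 and 66.0. On this scale the *TOX4* libraries did not overlap, at 28.5 to 29.2 in control and 31.0 to 32.1 in KO. Its ratio was 1.09 there, where the median ratio of all tested genes was 1.03, so this separation holds for the scaling by length and not for the normalized counts. How many of all tested genes separate on the per-length scale was not counted. On the normalized counts, 19.2% of them had every KO library above every control library.

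The genes next to the members on the chromosome were measured in the same libraries. Within 2 Mb of *TOX*, 7 genes were tested, with a median log2 fold change of 0.08, and the medians of clones 1, 2 and 3 against the control mean were −0.10, 0.04 and 0.21. The nearest tested neighbours, *NSMAF* and *SDCBP*, had log2 fold changes of −0.22 and −0.18 and were not called. Both had every KO library below every control library, as did 18.6% of all tested genes. The gene called was *CA8*, a carbonic anhydrase-related protein, whose start is 1162.3 kb from that of *TOX*. *CA8* had 96.1, 103.7 and 81.3 normalized counts in control and 306.5, 432.0 and 642.2 in KO. Its log2 fold change was 2.23 (SE 0.26, limma adjusted p = 0.0028). Its KO libraries all lay above its control libraries, as for 19.2% of all tested genes.

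Around *TOX2*, 31 genes were tested with a median of −0.10. Of these, *RIMS4*, a presynaptic protein, was called higher, and *TTPAL* and *KCNS1*, a modulatory potassium channel subunit, lower. The call of *KCNS1* was lost without each control replicate in turn and without clone 2 (adjusted p up to 0.169), and that of *TTPAL* without clone 3 (log2 fold change −0.49). Around *TOX3* 8 genes were tested, with a median of 0.01 and *NKD1*, an antagonist of WNT signalling, called higher near the edge of the window. Around *TOX4* 43 genes were tested, with a median of 0.00 and *ARHGEF40* called higher, a call lost without control replicate 1 (log2 fold change 0.49) and without clone 2 (0.42). The median of all tested genes was −0.01.

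**Figure D3:**
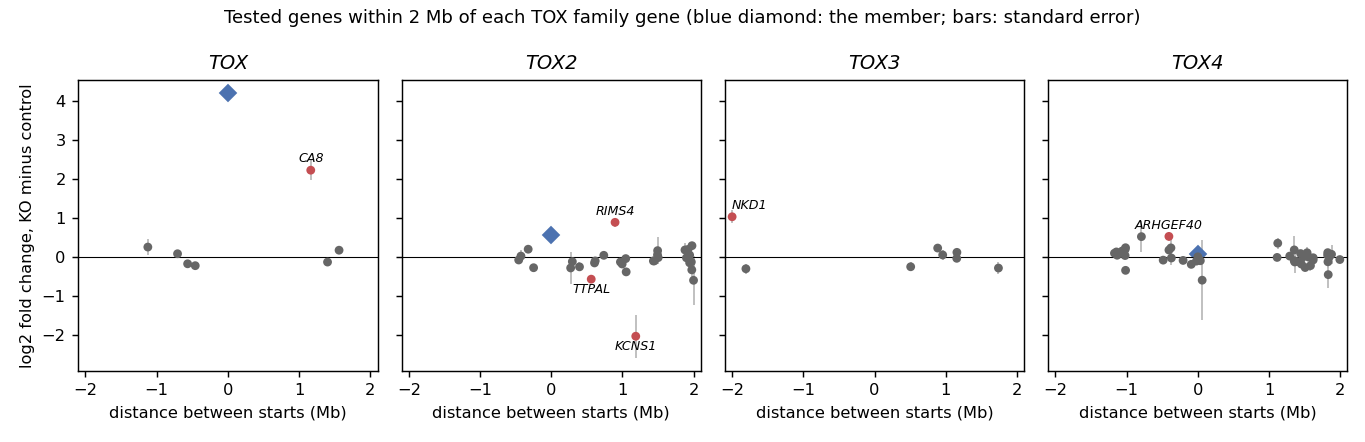
Log2 fold change with SE (y axis) against the distance between starts in Mb (x axis) for the genes tested within 2 Mb of each member, with called genes in red and the member in blue. *TOX* at 4.21 stands above its 7 tested neighbours, of which *CA8* at 2.23 was called; *TOX3* has no diamond because it was not tested.

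The pathways in which the proteins act were followed next, each as a list read beside the shares called over all genes (5.77% higher, 2.08% lower). The partners of TOX4 showed no call. PTW/PP1 has the PNUTS subunit *PPP1R10*, the adaptor *WDR82* and the phosphatase subunits *PPP1CA*, *PPP1CB* and *PPP1CC*, and 0 of these 5 were called in either direction, with a median log2 fold change of −0.04. *PPP1R10* had a log2 fold change of 0.02 (SE 0.07), *WDR82* 0.12 (SE 0.10), *PPP1CA* −0.06 (SE 0.05), *PPP1CB* −0.04 (SE 0.05) and *PPP1CC* −0.20 (SE 0.06, limma adjusted p = 0.0806). At an unadjusted p below 0.05 in limma, 1 of the 5 passed, *PPP1CC*, and neither edgeR nor DESeq2 called any of the 5.

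Of the genes of the calcineurin route to *TOX* in T cells, 2 of 11 tested were called, both higher and both NR4A nuclear receptors. *NR4A3* had 26.3, 30.3 and 24.1 normalized counts in control and 84.0, 159.0 and 148.4 in clones 1, 2 and 3. Its groups did not overlap, and the log2 fold change was 2.19 (SE 0.27, limma adjusted p = 0.0036). Every KO library lay above every control library for 19.2% of all tested genes. *NR4A2* rose from 153.4 ± 14.8 in control to 311.7 ± 114.6 in KO (SD, n = 3 each), by 0.96 on the log2 scale (SE 0.25, limma adjusted p = 0.0498). This call was lost without each control replicate in turn and without clone 2 (limma adjusted p from 0.083 to 0.18), and with the replicate number as a block (limma adjusted p = 0.0759). *NR4A1* had a log2 fold change of 0.41 (SE 0.20, limma adjusted p = 0.227). The calcineurin subunits *PPP3CA*, *PPP3CB*, *PPP3CC* and *PPP3R1* and the NFAT factors *NFATC1* to *NFATC4* were not called; among them *NFATC1* had 0.56 (SE 0.23) and *NFATC2* −0.47 (SE 0.13) on the log2 scale. Without clone 1, *NFATC2* was called lower (−0.63) and *NR4A1* higher (0.64). The median of the list was 0.03.

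TOX can bind the HBO1 acetyltransferase complex, whose catalytic subunit is *KAT7*. Of its 10 tested genes 1 was called: *JADE3*, a scaffold subunit, had 1115, 1216 and 1255 normalized counts in control and 2073, 1978 and 2100 in KO. The groups did not overlap (log2 fold change 0.78, SE 0.07, limma adjusted p = 0.000941). Its paralog *JADE2* had a log2 fold change of −0.53 (SE 0.16, limma adjusted p = 0.0782; called lower without clone 1, at −0.64) and *KAT7* 0.09 (SE 0.06). The median of the list was 0.06. Of the 9 tested CREB genes and co-activators, 0 were called by limma, edgeR or DESeq2. Also 0 had an unadjusted limma p below 0.05, and the median was −0.02. For the TOX3 partners named above, *CREBBP*, which encodes CBP, had a log2 fold change of −0.04 (SE 0.08). *CITED1* was under the count filter and not tested, with 2, 1 and 2 reads in control and 5, 3 and 3 in KO. *CITED2* was low in clones 1 and 3 with 847.4 and 1157 normalized counts, against 1752 in clone 2 and 1592 to 1711 in control, and it was called lower when clone 2 was left out (log2 fold change −0.74).

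Other genes with an HMG box, not including the SOX genes, were measured in the same libraries. The counts for this list therefore do not cover the whole class, and the study reports *SOX9* as up-regulated in these KO cells. Of 23 listed, 22 were tested, 2 were called higher and 0 lower in limma, where 5 and 3 had an unadjusted p below 0.05, and the median log2 fold change was 0.06. edgeR and DESeq2 also called 2 each. The 2 were *LEF1* and *TCF7L1*, which encode DNA-binding partners of beta-catenin in WNT signalling. *LEF1* had 644.0, 573.4 and 573.9 normalized counts in control and 1289, 1395 and 1175 in KO, a log2 fold change of 1.10 (SE 0.09, limma adjusted p = 0.000777). *TCF7L1* had 274.5, 287.7 and 252.0 against 437.1, 584.0 and 438.9 (log2 fold change 0.83, SE 0.14, limma adjusted p = 0.00999). Neither pair of groups overlapped. The related *TCF7* had a log2 fold change of 0.41 (limma adjusted p = 0.0556) and *TCF7L2* −0.31 (limma adjusted p = 0.223). Without clone 3, *TCF7L2* was called lower (−0.50) and *HMG20B* higher (0.53). *HMGB3* was high in clone 1 alone, at 6268 normalized counts, against 2653 to 3108 in the other libraries.

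**Figure D4:**
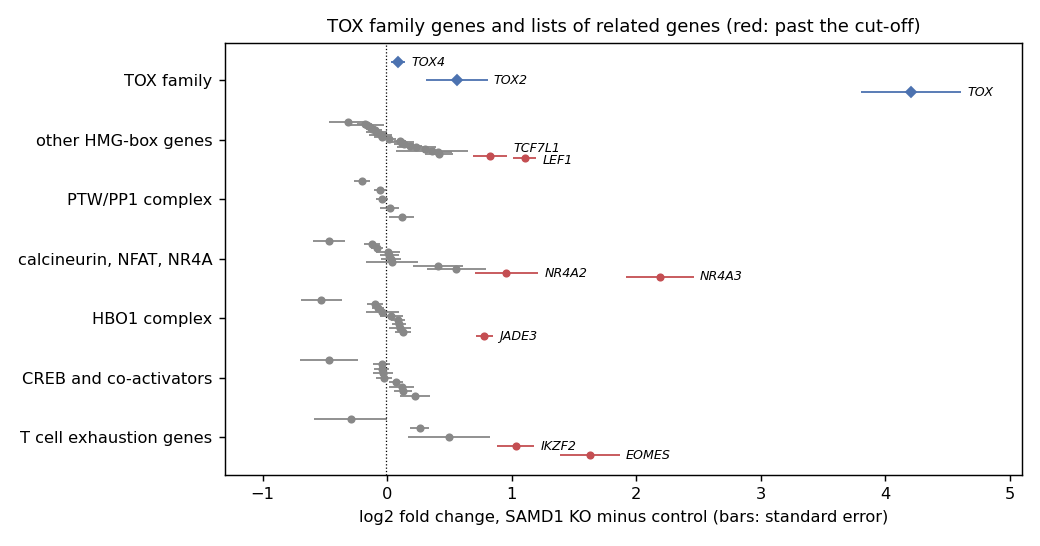
Log2 fold change with SE (x axis) of the 3 TOX family genes with reads (blue) and of each tested gene of 6 lists (rows), with genes past the cut-off in red and named. *TOX* at 4.21 lies to the right of every gene drawn, the nearest being *NR4A3* at 2.19; the dotted line is the median of all tested genes.

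Genes that accompany *TOX* in exhausted T cells mostly had few or no reads in this line. Of 14 listed, 5 were tested, 4 had no read in any library and 2 were called higher. *EOMES*, a T-box factor, had 18.3, 24.5 and 19.5 normalized counts in control and 62.3, 82.9 and 54.9 in KO (log2 fold change 1.63, SE 0.24, limma adjusted p = 0.0065). *IKZF2*, the zinc finger factor Helios, had 143.0, 183.9 and 186.7 against 305.5, 370.6 and 373.3 (log2 fold change 1.03, SE 0.15, limma adjusted p = 0.006). *ENTPD1*, the most abundant of the 14 listed, had 1585 ± 61 in control and 1902 ± 155 in KO (SD, n = 3 each). It was not called (log2 fold change 0.26, SE 0.08, limma adjusted p = 0.0635). Every KO library lay above every control library for 3 of the 5 tested genes (these and the 2 called), against 19.2% of all tested genes. The median log2 fold change of the 5 was 0.50. The inhibitory receptor genes *PDCD1*, *CTLA4* and *CD244* had 0 reads, and *LAG3* had 27.9 to 59.6 normalized counts with overlapping groups.

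Most markers of lymphoid cells were at or near 0 beside the rise of *TOX*, but *CD8A* was not. Of 16 listed genes, 10 had at most 3 reads in every library, and 5, *CD3D*, *CD3E*, *CD2*, *CD8B* and *MS4A1*, had none. The summed level of the 16 was 54.9 to 65.6 normalized counts in control and 52.7 to 91.0 in KO, most of it *CD8A*. *CD8A* had 34.3 to 45.0 in control and 76.1, 41.5 and 37.8 in clones 1, 2 and 3 (log2 fold change 0.35, limma adjusted p = 0.473). Of 6 tested epithelial markers, *KRT7* and *KRT18* were called higher, and of 3 tested fibroblast markers *PDGFRA* was, with 3.98 ± 0.57 in control and 17.9 ± 5.1 in KO (SD, n = 3 each). *PDGFRA* passed the filter only through the KO clones, and was not tested without clone 1. The collagen genes were not called and went opposite ways: *COL1A1* had 50.6 ± 1.9 in control and 26.2 ± 13.6 in KO (log2 fold change −1.04, limma adjusted p = 0.098), and *COL3A1* had 111.1 ± 2.3 and 269.5 ± 134.2 (1.13, limma adjusted p = 0.0881). *COL1A1* passed without clone 2 (log2 fold change −1.42), and *COL3A1* without clone 3 (1.58) and in edgeR and DESeq2. The call of *KRT18* held with all libraries and without clone 3, and was lost when any of the other 5 libraries was left out. The fibroblast markers *DCN* and *LUM* had no read, and the summed level of the list was 167.2 to 170.2 in control and 164.6 to 458.8 in KO. The part of these marker genes in the *TOX* values was not tested.

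The genes most like *TOX* were sought over the 6 libraries by the root mean square difference in log2(normalized count + 1) from the control mean. This measure uses the contrast on which *TOX* was chosen and is a description. The nearest was *PCDH7*, a protocadherin, at 0.58, with 18.6 to 20.6 normalized counts in control and 225.5, 282.5 and 248.3 in KO clones 1, 2 and 3. *GUCY1A1*, a subunit of soluble guanylate cyclase, followed at 0.70, and *SLC16A14*, of the monocarboxylate transporter family, at 0.76. *STRA6*, the cell surface receptor for retinol-binding protein, was at 0.95 and differed from *TOX* in clone 3, where it had 28.8 normalized counts against 148.6 in clone 2. *NDNF*, a secreted neurotrophic factor, was at 0.98, with 33.6, 93.3 and 81.0 in the clones. In *NDNF*, *PCDH7*, *GUCY1A1* and *SLC16A14* clone 1 was the lowest clone, as in *TOX*. The measure includes the clones, so a shared order is partly built in, and its share over all genes was not counted. The median gene was at 3.01.

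**Figure D5:**
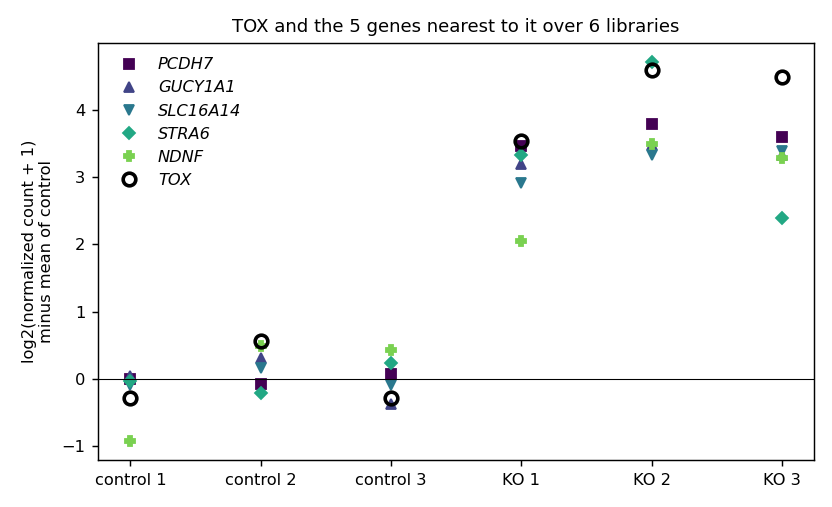
Difference of log2(normalized count + 1) from the control mean (y axis) in each of the 6 libraries (x axis), for *TOX* (open circles) and the 5 nearest genes. All 6 genes were above their controls in every clone, and *STRA6* left the others in clone 3.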

How the data were processed

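RNA was measured in 6 libraries of PaTu8988t cells, prepared with a stranded mRNA kit. The authors aligned reads with RNA-STAR to the human transcriptome and, per the labels, used featureCounts, DESeq2 and hg38. The deposited signal is a normalized count per gene. All values of each library (100%) were whole multiples of 1 step within 0.001, so reads were recovered. The authors' table of fold changes and p-values was not used.

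limma 3.58.1 (R 4.3.3, trend) was fitted to log2(normalized count + 1) of the 12773 genes with a mean of at least 10, without a block. A call is a log2 fold change beyond 0.5 with unadjusted p below 0.01, the study's cut-off. p-values are two-sided and were adjusted over every tested gene (Benjamini-Hochberg). Nothing states that the control replicates were separate cultures, so p-values measure the spread between these libraries. The fit was run on simulated counts with the same dispersion for every gene and in both groups. This setting does not cover a wider spread among the KO clones. GENCODE 44 gave positions for 98.5% of tested genes, by symbol.

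The members and lists were chosen with earlier results of these data known. Genes named are the members, *SAMD1*, the PTW/PP1 genes, up to 3 called genes per list by smallest p, the 5 genes most like *TOX* and the genes at 10-fold. Others (*CA8*, other called or adjacent neighbours, and uncalled list genes) were named after their values were seen. Alternatives were another pseudocount (0.1, 10) or filter, rescaling, a replicate block, leaving out libraries, edgeR 4.0.16 and DESeq2 1.42.0 on recovered reads. Other steps used Python 3.11.15, SciPy 1.17.1 and matplotlib 3.10.9. A lymphoid marker was taken out of its list for a reason unrelated to its values and is not reported here.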

Additional observations from a re-analysis of the deposited data

How the results depend on the processing

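*TOX2* and *TOX4* kept their direction and stayed outside the cut-off under all 15 alternatives each, with log2 fold changes of 0.38 to 0.78 and 0.06 to 0.12 and limma, edgeR or DESeq2 adjusted p from 0.133 to 0.471 and from 0.198 to 0.628. *TOX* had a log2 fold change of 4.02 to 4.54 with 1 library left out. It was 2.67 with a pseudocount of 10, where the larger added count lies above its control values, and 4.58 with 0.1. It was absent with a mean of at least 50. *TOX3* had no value under any setting. The genes called higher and lower numbered 357 and 103 with an adjusted p below 0.01, and 569 to 859 and 177 to 369 with 1 library left out; the lowest count of lower calls came without control replicate 2. edgeR called 779 and 247 and DESeq2 830 and 265 on recovered reads. With the replicate number as a replicate block, 725 and 259 were called, and *TOX2* had a limma adjusted p of 0.169, outside the cut-off. Same-numbered libraries had correlations of 0.03 to 0.13, with 1 of 3 above 0.1, and 5 of 6 libraries correlated best with their own number. These values do not settle whether the numbers mark pairs, so the fit is given both without and with the block. *SAMD1* stayed between −1.44 and −1.24 with 1 library left out. Within 5 Mb instead of 2 Mb, the median of the *TOX* neighbours turned from 0.08 to −0.06 and that of *TOX3* from 0.01 to −0.07, with 2 and 4 genes called higher; that of *TOX2* was −0.05 and that of *TOX4* 0.00. After seeing the data, the length of the canonical transcript was added for the level per length. Lists of called genes moved with single libraries: the calcineurin list had 1 to 4 called genes, the HMG-box list up to 4, the HBO1 list up to 2, the CREB list up to 1 and the fibroblast list 0 to 2. Depth limits *TOX* in control cells and *TOX3*.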
